A study of Mus musculus with 27 samples.

Results

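The 10 genes described here encode titin and the proteins that tie it into the cardiac sarcomere: Ttn, Mybpc3, Myom1, Myom2, Actn2, Ldb3, Nebl, Tcap, Myoz2 and Des. They were chosen by name, as the rows with these symbols, and make up 10 of 24025 genes in a table of 25 bulk RNA sequencing libraries and 10 of 19020 genes in 2 single-cell libraries. The study compared hearts of C57BL/6 mice carrying deletions of Hand2as, a long noncoding RNA gene next to the heart transcription factor gene Hand2, with hearts of control mice. Allele F is a knockout of the whole gene, and allele D one of its 3′ distal portion. Bulk libraries came from whole hearts at E11.5, E standing for embryonic day (3 F/+ and 3 F/F), from ventricles at E16.5 (3 F/+ and 3 F/F) and from cardiomyocytes at 8 weeks of age (5 +/+, 2 D/+ and 6 D/D). The embryonic bulk controls carry 1 copy of the F allele, whereas the single-cell control is +/+, so no embryonic bulk library is free of the deletion. Each single-cell library, 1 of +/+ and 1 of F/F at E11.5, pooled cells from 6 trypsinised hearts after sorting for living cells. The labels do not say whether bulk replicates came from separate animals, so p-values measure only the spread between these libraries.

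A sarcomere is the contractile unit of striated muscle, bounded by Z-discs and centred on the M-band. Titin is a giant protein that spans from Z-disc to M-band and acts as its spring and ruler. At the Z-disc it meets alpha-actinin and telethonin, and at the M-band it meets the myomesins. Desmin filaments link Z-discs of neighbouring myofibrils to each other and to the cell membrane. In mouse heart the fetal programme of sarcomere isoforms is replaced around and after birth, and titin is known for a change from compliant to stiffer splice forms, which gene-level values do not resolve.

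Promoters that hold a match to a muscle motif are shown first for 5 of the 10 genes, as the 250 bases before an annotated transcription start (RefSeq, GRCm38.p6). RefSeq windows matched 8 of the 10 genes, with 12 windows in all, and Myom2 and Tcap were not matched. Both strands were searched for the MEF2 and CArG consensus, which are bound by MEF2 factors and serum response factor. A further motif searched was AGATAA, bound by factors of the Gata family. Also searched was CATCTG, an E-box of the kind Hand proteins bind, and the last was the box TATAAA. The MEF2 consensus was found in Ttn, Mybpc3 and Myoz2, and the CArG consensus in Myom1, in Ldb3 and in 1 of 4 windows of Nebl. Both patterns read alike on either strand, so each match is 1 place. Capitals mark these matches and, in Myom1, also the AGATAA match on the opposite strand.
Ttn, chr2:76982548-76982797, minus strand: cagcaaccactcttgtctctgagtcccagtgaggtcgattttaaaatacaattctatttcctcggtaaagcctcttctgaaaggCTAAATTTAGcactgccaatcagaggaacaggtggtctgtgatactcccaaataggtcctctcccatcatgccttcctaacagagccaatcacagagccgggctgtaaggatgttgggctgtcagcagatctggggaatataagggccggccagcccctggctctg
Mybpc3, chr2:91117894-91118143, plus strand: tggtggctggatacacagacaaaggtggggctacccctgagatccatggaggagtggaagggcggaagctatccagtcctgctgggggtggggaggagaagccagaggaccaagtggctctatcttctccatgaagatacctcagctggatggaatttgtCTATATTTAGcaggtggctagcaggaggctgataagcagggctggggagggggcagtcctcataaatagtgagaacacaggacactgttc
Myoz2, chr3:123034988-123035237, minus strand: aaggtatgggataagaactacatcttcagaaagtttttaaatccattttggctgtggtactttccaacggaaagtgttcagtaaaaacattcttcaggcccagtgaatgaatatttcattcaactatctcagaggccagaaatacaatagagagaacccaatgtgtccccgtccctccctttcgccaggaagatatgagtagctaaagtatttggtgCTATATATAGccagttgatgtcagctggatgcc
Myom1, chr17:71019307-71019556, plus strand: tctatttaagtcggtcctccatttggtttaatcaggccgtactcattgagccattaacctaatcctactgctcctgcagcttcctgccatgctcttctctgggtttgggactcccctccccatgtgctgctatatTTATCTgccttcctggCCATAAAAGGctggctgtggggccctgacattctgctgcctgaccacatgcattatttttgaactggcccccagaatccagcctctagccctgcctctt
Ldb3, chr14:34588682-34588931, minus strand: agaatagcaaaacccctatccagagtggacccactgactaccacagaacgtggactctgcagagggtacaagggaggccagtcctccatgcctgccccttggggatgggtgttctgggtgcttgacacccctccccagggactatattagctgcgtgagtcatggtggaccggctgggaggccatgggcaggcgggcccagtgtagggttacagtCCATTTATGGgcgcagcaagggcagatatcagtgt
The MEF2 match lay 157 to 166 bases before the start of Ttn, 81 to 90 before that of Mybpc3 and 24 to 33 before that of Myoz2. The CArG match lay 90 to 99 bases before the start of Myom1 and 26 to 35 before the Ldb3 start shown. Ldb3 has a second, overlapping window that holds the same CArG letters. Among 32536 windows of the same length over all genes, 2.89% held the MEF2 consensus and 1.48% the CArG consensus. AGATAA, present in 9.97% of windows, was found in Myom1 and in 2 windows of Nebl. CATCTG, in 14.4% of windows, and TATAAA, in 12.3%, were in none of the 12. A match describes letters in these windows and was not tested for binding.

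Bulk values are FPKM, read levels normalised to transcript length and to the library total, which allow levels of different genes to be compared. The libraries summed to 334194 to 586795 FPKM and held 9495 to 11641 genes at 1 FPKM or more. Sequencing depth is unknown. All 12 cardiomyocyte markers were above 0 in some library of every group, and 11 of them averaged 1 FPKM or more in each 8-week group. Their summed levels were 12164 to 18938 FPKM in the embryonic libraries and 25422 to 38429 FPKM at 8 weeks. Summed skeletal muscle markers reached at most 10.2 FPKM. Hand2as itself was listed at 0 in all 6 libraries of E11.5 and in the 3 F/F libraries of E16.5, against 0.37 to 1.4 FPKM in F/+. At 8 weeks it was at 0 to 2.67 FPKM in D/D, 5.25 to 6.17 in D/+ and 6.9 to 13.5 in 4 of the 5 +/+ libraries. The library labelled +/+ replicate 5 had Hand2as listed at 0, against its label, and it and D/D replicate 6 formed a cluster apart from the other 11 libraries at 8 weeks. Values at 8 weeks include these libraries unless stated. Counts of the 10 genes called and some other results are therefore also given without 1 or both of them. In bulk tissue, fewer cardiomyocytes and less RNA per cardiomyocyte cannot be told apart.

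Titin RNA was listed at lower FPKM in embryonic hearts than in 8-week cardiomyocytes. FPKM divides by transcript length, which is greatest for Ttn. In the single-cell libraries of E11.5, described below, Ttn was found in 99.5% (+/+) and 98.9% (F/F) of cardiomyocyte-like cells. Ttn stood at 13.2, 16.4 and 5.96 FPKM in the 3 F/+ libraries of E11.5 and at 13.7, 2.61 and 12.4 in the 3 F/F libraries. At E16.5 it was at 6.18, 8.04 and 7.65 FPKM in F/+ and at 8.99, 6.79 and 10.2 in F/F. The values of both stages overlapped. At 8 weeks the 5 +/+ libraries held 113, 112, 94.2, 79.7 and 21.1 FPKM, the 2 D/+ libraries 139 and 105, and the 6 D/D libraries a lowest of 36.5, a median of 78.3 and a highest of 130. Every 8-week library was above every embryonic library, with the +/+ library at 21.1 nearest to the embryonic range.

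Mybpc3, whose product cross-links myosin near the centre of the thick filament, increased in steps. It was at 281, 353 and 188 FPKM in F/+ and 323, 220 and 389 in F/F at E11.5, then at 810, 784 and 842 in F/+ and 783, 772 and 813 in F/F at E16.5. No library of one embryonic stage overlapped the other. At 8 weeks the +/+ libraries held 1348, 1345, 1264, 1354 and 1021 FPKM, D/+ 1480 and 1258, and D/D 823 to 1497 with a median of 1222. The D/D range extended past that of +/+ on both sides, and its lowest value lay within the E16.5 range.

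The M-band genes Myom1 and Myom2, which encode myomesins that bundle thick filaments, followed different courses. Myom1 was at 81, 88 and 52.5 FPKM in F/+ and 80.5, 38.8 and 94.2 in F/F at E11.5, and at 97.4, 99.8 and 104 in F/+ and 121, 93.6 and 116 in F/F at E16.5. The lowest F/F value of E16.5 was within the E11.5 range. Myom1 then reached 312, 402, 321, 356 and 200 FPKM in +/+, 355 and 357 in D/+, and 271 to 418 in D/D with a median of 312. Its 8-week values were all above those of the embryo. Myom2 was nearly absent at E11.5, at 0.27, 0 and 0.25 FPKM in F/+ and 0.36, 0 and 0.25 in F/F. It stood at 29, 21.2 and 22.4 FPKM in F/+ and 27.5, 23.2 and 31 in F/F at E16.5. The 3 stages did not overlap, because 8-week values were 396, 730, 298, 340 and 278 in +/+, 487 and 325 in D/+ and 245 to 584 in D/D, with a median of 285.

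Among Z-disc genes, Actn2 and Ldb3 were already high at E16.5. Actn2 encodes sarcomeric alpha-actinin, the cross-linker of actin at the Z-disc, and was at 239, 331 and 187 FPKM in F/+ and 291, 192 and 372 in F/F at E11.5. It then stood at 913, 958 and 1010 in F/+ and 1032, 939 and 923 in F/F at E16.5. The 8-week values of 960, 1202, 1240, 1293 and 1325 in +/+, 1087 and 1322 in D/+ and 933 to 1652 in D/D (median 1338) overlapped those of E16.5. Ldb3, whose product Cypher binds alpha-actinin through a PDZ domain, ranged from 74.1 to 158 FPKM over the 6 libraries of E11.5, from 400 to 459 at E16.5 and from 588 to 1117 at 8 weeks, with no overlap between stages.

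Myoz2 and Tcap stood in the middle of the order in the embryo and among the highest of the 10 genes at 8 weeks. Myoz2 encodes calsarcin-1, which tethers calcineurin at the Z-disc, and ranged from 29.9 to 57.7 FPKM at E11.5, from 88.4 to 169 at E16.5 and from 918 to 1628 at 8 weeks. Tcap encodes telethonin, which caps paired titin ends at the Z-disc. It was at 38.6, 34.2 and 42.4 FPKM in F/+ and 38.3, 36.2 and 75.5 in F/F at E11.5, and at 98.7, 114 and 136 in F/+ and 118, 127 and 101 in F/F at E16.5. At 8 weeks it held 1082, 1306, 1918, 967 and 2410 FPKM in +/+, 1032 and 2141 in D/+, and 721 to 2365 in D/D with a median of 1123. The stages did not overlap for either gene, and the 8-week values of Tcap differed 3.34-fold from lowest to highest.

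Nebl was the 1 gene of the 10 whose E16.5 libraries all lay below those of both other stages. Its product nebulette is a nebulin-like protein of the cardiac Z-disc that binds thin filaments. Nebl was at 15.1, 13.4 and 5.55 FPKM in F/+ and 11.4, 6.26 and 16.6 in F/F at E11.5, and at 0.48, 0.64 and 0.62 in F/+ and 0.78, 0.37 and 0.98 in F/F at E16.5. The 6 libraries of E16.5 were all below 1 FPKM and did not overlap any other library. At 8 weeks the +/+ libraries held 17.1, 14.3, 10.9, 9.77 and 2.75 FPKM, D/+ 17.2 and 12, and D/D 3.86 to 15.9 with a median of 9.67. Beside these low values, Gapdh, a glycolytic gene that every cell uses, was also listed at only 0.12 to 5.09 FPKM in the 12 embryonic libraries, against 980 to 2529 FPKM at 8 weeks. In bulk, Gapdh was low on both embryonic days and Nebl at E16.5 alone. The single-cell libraries of E11.5, described below with their unit CPM, held Gapdh at 2330 (+/+) and 2440 (F/F) CPM over all cells. In their cardiomyocyte-like cells Gapdh was at 5340 and 5290 CPM, so its low bulk values at E11.5 were not matched there. Neither single-cell library is of E16.5. Whether the low Nebl values belong to the tissue or to the authors' estimate was not tested.

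Des encodes desmin, the muscle intermediate filament. It was at 229, 309 and 171 FPKM in F/+ and 275, 244 and 298 in F/F at E11.5, and at 370, 390 and 426 in F/+ and 389, 420 and 356 in F/F at E16.5. The 8-week libraries ranged from 958 to 2213 FPKM and the stages did not overlap.

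**Figure D1:**
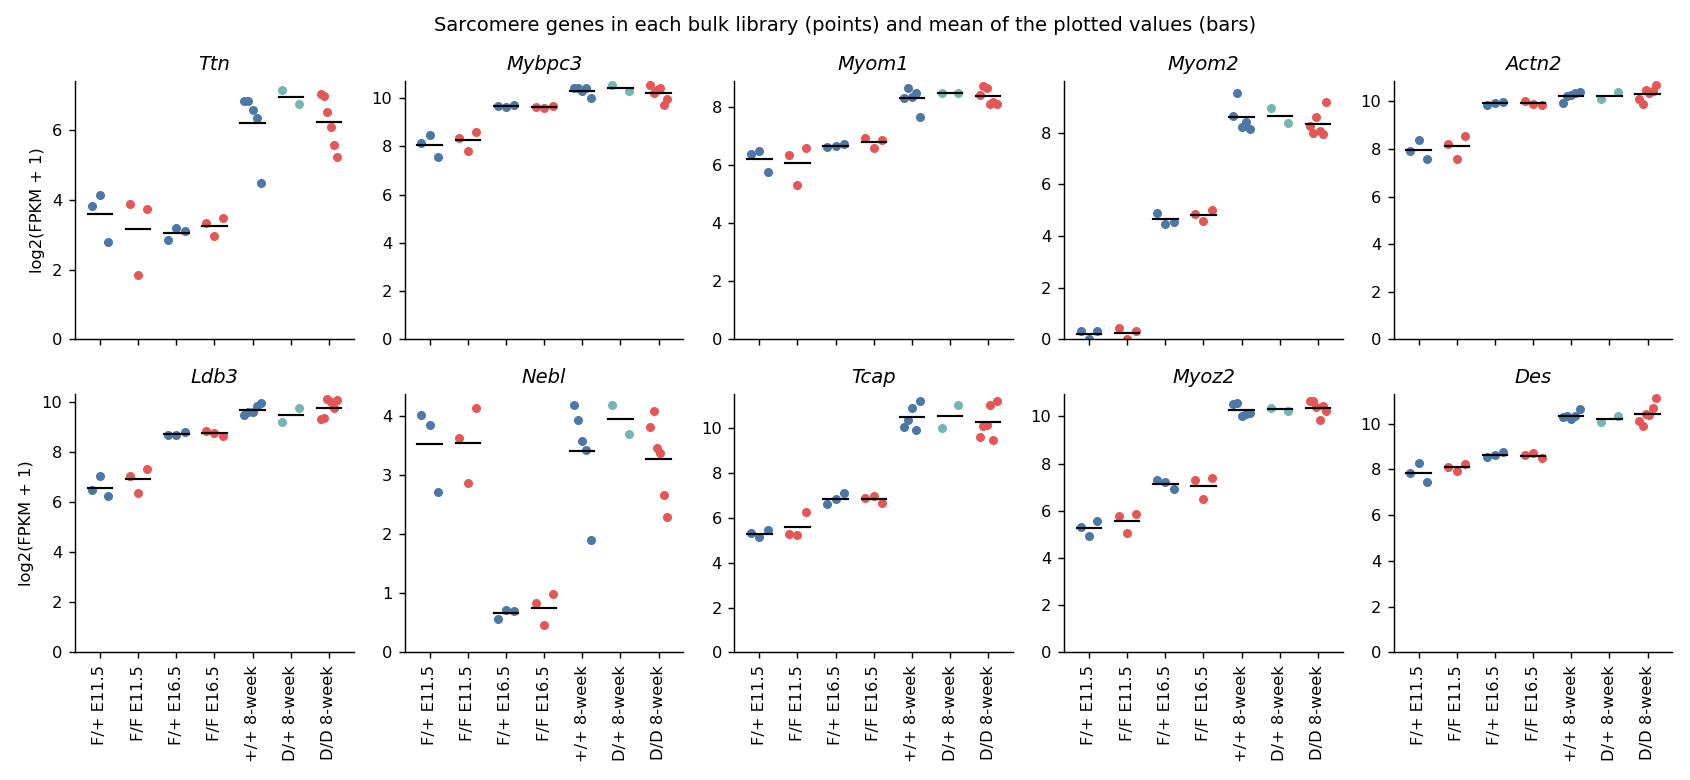
Each panel plots log2(FPKM + 1) of 1 gene in the 25 bulk libraries (points) by group, with bars at the mean of the plotted values; controls are blue or green and homozygous deletions red. Nebl lies lowest at E16.5, Myom2 is near 0 at E11.5, and homozygous and control points overlap within each stage in every panel.

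Ordered by level in F/+ at E11.5, Mybpc3 (274 FPKM ± 82.5 SD, n = 3), Actn2 (252 ± 73) and Des (236) were highest and overlapped each other. Ldb3 (97 FPKM) and Myom1 (73.8) came next and overlapped, as did Tcap (38.4) and Myoz2 (38.3), and as did Ttn (11.9) and Nebl (11.4). Myom2 was last at 0.173 FPKM. At E16.5 in F/+, Actn2 (960 FPKM ± 48.9 SD, n = 3) was above Mybpc3 (812 ± 28.8) without overlap, followed by Ldb3 (420) and Des (395), which overlapped. Myoz2 (141), Tcap (116) and Myom1 (101) formed an overlapping run, and Myom2 (24.2), Ttn (7.29) and Nebl (0.58) stood apart in that order. In 8-week +/+ cardiomyocytes Tcap (1536 FPKM), Des (1309), Mybpc3 (1266), Myoz2 (1260), Actn2 (1204), Ldb3 (830), Myom2 (408) and Myom1 (319) overlapped from each to the next. Ttn (84.1 ± 37.8, SD, n = 5) and Nebl (11) came below them without overlap. FPKM divides by transcript length, which is 106824 nt for Ttn and 948 nt for Tcap in the annotation table used here.

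From E11.5 to E16.5, most of these genes rose and Nebl fell, in F/+ and in F/F libraries alike. With limma and Benjamini-Hochberg adjustment over all genes, 7 of 10 were higher and 1 lower in F/+, where 17.7% of 11405 genes tested were higher and 31% lower. In F/F, 7 were again higher and 1 lower, against 17.3% and 29.7% of 11396 genes. These values compare whole heart with ventricle as well as 2 ages, and stage and tissue cannot be told apart. The median change of the 10 genes was 1.59 in F/+ and 1.32 in F/F on the log2(FPKM + 1) scale, against -0.18 and -0.17 over all genes tested. The F/+ and F/F comparisons share no library.

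Myom2 had the largest change in F/+, a log2 fold change of 4.42 (SE 0.21, limma adjusted p = 5.25e-06), and changed by 4.55 (SE 0.21, limma adjusted p = 4.79e-06) in F/F. Since 2 libraries of E11.5 listed it at 0, these values depend on the pseudocount. Ldb3 rose by 2.14 in F/+ and 1.84 in F/F, Actn2 by 1.96 and 1.81, Myoz2 by 1.86 and 1.50, and Mybpc3 by 1.61 and 1.38. Tcap rose by 1.57 and 1.26 and Des by 0.78 and 0.51, with limma adjusted p from 7.56e-05 to 0.0119 over these 6 genes in both genotypes. In 1 limma fit of all 25 libraries Des no longer passed in F/F (0.51, adjusted p = 0.0725). Nebl changed by -2.87 (SE 0.34, limma adjusted p = 0.000267) in F/+ and by -2.79 (SE 0.34, limma adjusted p = 0.00036) in F/F.

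Ttn and Myom1 did not pass the test. The log2 difference of Ttn was -0.54 (SE 0.32, limma adjusted p = 0.192) in F/+ and 0.10 (SE 0.49, limma adjusted p = 0.886) in F/F. Without F/+ replicate 3 of E11.5, the library with the highest sum of erythroid markers, Ttn passed in F/+ at -0.93 (limma adjusted p = 0.00291), which made 2 lower genes. Without F/F replicate 2 of E11.5, the Ttn difference in F/F was -0.56 (limma adjusted p = 0.0527). Myom1 stood at 0.47 (limma adjusted p = 0.0668) in F/+ and 0.71 (limma adjusted p = 0.0796) in F/F, and passed under each of 3 other scalings, at 0.47 to 0.70 in F/+ and 0.93 to 1.07 in F/F.

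Between ventricles of E16.5 (F/+) and 8-week cardiomyocytes (+/+), 9 of 10 genes rose and none fell, against 24.9% higher and 44.9% lower of 10904 genes. Tissue, age and the heterozygous deletion differ together here and cannot be told apart. Gapdh went from a mean of 0.79 to 1658 FPKM between the same groups. Whether embryonic and 8-week values were estimated alike was not tested. Myom2 rose by 3.94 (SE 0.29), Tcap by 3.64 (SE 0.29), Ttn by 3.16 (SE 0.49), Myoz2 by 3.14 (SE 0.17) and Nebl by 2.75 (SE 0.44) on the log2(FPKM + 1) scale, with limma adjusted p between 3.01e-07 and 0.000366. Des rose by 1.72, Myom1 by 1.62, Ldb3 by 0.97 and Mybpc3 by 0.63 (limma adjusted p = 0.00185 for Mybpc3). Actn2 stood at 0.32 (SE 0.14, limma adjusted p = 0.0607). With FPKM rescaled after haemoglobin and mitochondrial genes were left out, Mybpc3 lost its call (0.26, limma adjusted p = 0.142) and Actn2 turned to -0.06, whereas Actn2 passed at 0.67 with upper-quartile and 0.74 with median-ratio scaling. Leaving out +/+ replicate 5 left 9 of 10 genes higher, and leaving out +/+ replicate 1 made it 10.

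Scaling moved the whole distribution in the stage comparisons. The median of all genes shifted by 0.19 to 0.20 with upper-quartile or median-ratio scaling between the embryonic stages, and by 0.31 and 0.37 between E16.5 and 8 weeks. Leaving haemoglobin and mitochondrial genes out of the scale shifted it by 0.32 in F/F between the embryonic stages and by -0.32 between E16.5 and 8 weeks. Of the genes called, 36.3% were higher in F/+ as deposited and 51.8% with upper-quartile scaling. The same share moved from 36.9% to 51.9% in F/F, and to 60.3% without haemoglobin and mitochondrial genes. From E16.5 to 8 weeks it moved from 35.7% to 48.8% or, without haemoglobin and mitochondrial genes, to 24.6%. Relative to the median of all genes, the 10 genes' median was higher by 1.77 in F/+, by 1.49 in F/F and by 2.57 at 8 weeks.

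**Figure D2:**
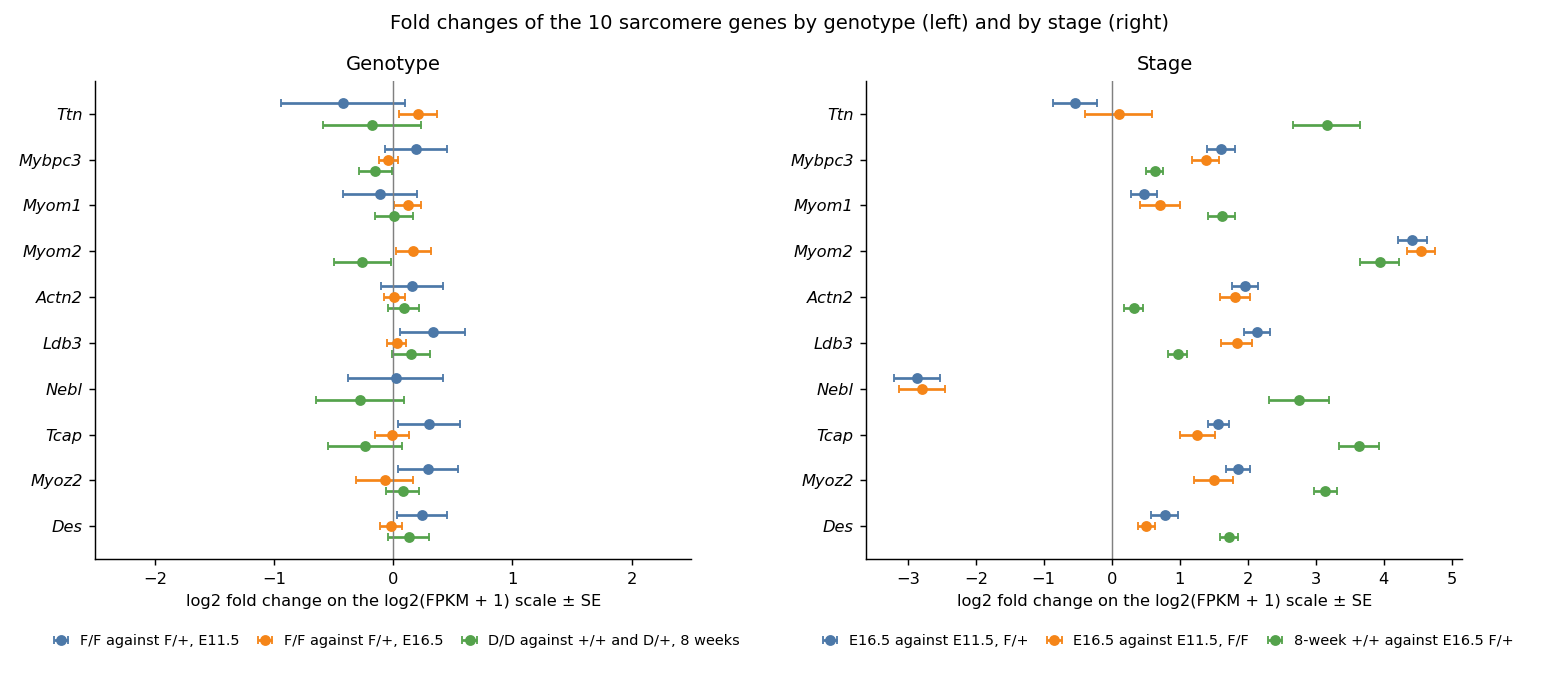
Points are log2 fold changes on the log2(FPKM + 1) scale and bars ± 1 SE from limma, for 3 genotype comparisons (left) and 3 stage comparisons (right) of the 10 genes. By genotype the estimates lie between -0.42 and 0.33, and by stage between -2.87 and 4.55; missing points are genes below the filter.

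Ratios of 2 genes within a library depend less on how that library was scaled than levels do, except where a gene is near the 1 FPKM added to both. The log2 ratio of Myom2 to Myom1, both as FPKM + 1, was -5.97 ± 0.53 (SD, n = 3) in F/+ and -5.82 ± 0.47 in F/F at E11.5. It was -2.02 ± 0.27 in F/+ and -1.98 ± 0.11 in F/F at E16.5, and 0.30 ± 0.40 (n = 5) in 8-week +/+. Over all 13 libraries of 8 weeks it ran from -0.72 to 1.11. With Myom2 at 0 to 0.36 FPKM, the E11.5 values are set by the added 1 FPKM and by Myom1. Myom2 was below Myom1 in every embryonic library, and at 8 weeks the 2 genes were at like levels. The differences between stages were 3.95 in F/+, 3.84 in F/F and 2.32 from E16.5 to 8 weeks, without overlap, with exact two-sided permutation p of 0.1, 0.1 and 0.0357, each the smallest its design allows. The first 2 differences depend on the pseudocount, and at 0.1 FPKM they were 6.20 and 6.03. None of 24 such tests passed after adjustment (smallest adjusted p = 0.267).

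Relative to Mybpc3 and Actn2, Ttn was lowest at E16.5. The log2 ratio of Mybpc3 to Ttn was 4.48 ± 0.25 (SD, n = 3) in F/+ at E11.5, 6.62 ± 0.19 at E16.5 and 4.09 ± 0.83 (n = 5) in 8-week +/+. That of Actn2 to Ttn went from 4.36 ± 0.35 to 6.86 ± 0.13 and then to 4.02 ± 1.11 over the same groups. In F/F both ratios were also higher at E16.5, by 1.28 for Mybpc3 and 1.71 for Actn2. Groups of successive stages did not overlap for either ratio with 1 FPKM added, with the same exact permutation p values as for Myom2 to Myom1. With no pseudocount, an alternative added after seeing the data, Mybpc3 to Ttn overlapped between stages in F/F, at 4.56 to 6.40 at E11.5 and 6.32 to 6.83 at E16.5 (difference 1.22, exact permutation p = 0.2). The other stage comparisons of both ratios kept apart without it. The log2 ratio of Tcap to Myoz2 overlapped between stages, with differences of -0.30 in F/+, -0.23 in F/F and 0.49 from E16.5 to 8 weeks.

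By genotype, no difference in the 10 genes passed the test at any stage. At E11.5, limma called 0 of the 9 tested (Myom2 was below the filter of a mean of 1 FPKM), against 0.0087% of 11491 genes. None of the 9 had F/F and F/+ libraries that did not overlap, where 9.23% of all genes did. At E16.5 it called 0 of 9 (Nebl was below the filter), against 0.00935% of 10699 genes, and 0 of 9 did not overlap, against 6.78%. At 8 weeks, D/D was compared with +/+ and D/+ together, and limma called 0 of 10, where 0% of 10249 genes were called. Groups did not overlap for 0 of 10, against 0.0293% of all genes. None of the members had an unadjusted limma p under 0.05 in these comparisons.

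The differences were of about the size of their errors or smaller. At E11.5 the log2 difference of F/F from F/+ ran from -0.42 (SE 0.52) for Ttn to 0.33 (SE 0.27) for Ldb3, with a median of 0.19 against 0.02 over all genes. Rescaled without haemoglobin and mitochondrial genes, 7 of these 9 values turned negative, while the median of all genes shifted by -0.33. The summed erythroid markers ranged from 39266 to 136289 FPKM over the 6 libraries. At E16.5 the differences ran from -0.07 (SE 0.24) for Myoz2 to 0.21 (SE 0.16) for Ttn, with a median of 0.01. At 8 weeks they ran from -0.28 (SE 0.37) for Nebl to 0.15 (SE 0.16) for Ldb3, with a median of -0.07. The smallest limma adjusted p of the 10 genes in any of the 3 comparisons was 0.9993. A count of 0 does not show that levels were equal, since the SE of Ttn was 0.52 at E11.5 and 0.41 at 8 weeks.

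The difference of the F/F effect between E16.5 and E11.5 was tested as an interaction. It was called by limma for 0 of the 10 genes, against 0.00875% of 11423 genes, and its values ran from -0.37 (SE 0.37) for Myoz2 to 0.63 (SE 0.65) for Ttn. In the 4 within-library ratios the genotype groups overlapped at every stage. Mybpc3 to Ttn differed by 0.61 at E11.5 (5.09 ± 0.76 in F/F and 4.48 ± 0.25 in F/+, SD, n = 3 each, exact permutation p = 0.2) and by -0.25 at E16.5 (exact permutation p = 0.3). Actn2 to Ttn differed by 0.59 and -0.20 (exact permutation p = 0.2 and 0.4), and Tcap to Myoz2 by 0.00 at E11.5, 0.07 at E16.5 and -0.32 at 8 weeks. The log2 ratio of Myom2 to Myom1 differed by 0.14 at E11.5, by 0.04 at E16.5 and by -0.27 at 8 weeks (exact permutation p = 0.7, 0.8 and 0.372). Without D/D replicate 6, whose ratio of 1.11 was the highest of 13, the 8-week difference was -0.50 (permutation p = 0.0354, not adjusted). This was the only 1 of 13 runs leaving out a library that changed the result, and the difference ran from -0.50 to -0.13 over these runs.

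Among libraries of 1 stage, some of the 10 genes varied far more than others. Over all 13 libraries of 8 weeks the highest Ttn value was 6.59-fold the lowest and that of Nebl 6.26-fold, against 2.98-fold for Myom2, 2.31-fold for Des and 1.77-fold for Actn2 and Myoz2. Within groups the Ttn range was 5.35-fold in +/+ and 3.55-fold in D/D. The 3 libraries with the least Ttn, +/+ replicate 5 and D/D replicates 6 and 5, were also the 3 with the least Nebl and the least Mybpc3. They were the 3 with the most Des. Tcap was at 2410 and 2365 FPKM in +/+ replicate 5 and D/D replicate 6, the highest of 13, but at 721 in D/D replicate 5, the lowest. All 3 had Hand2as listed at 0, and the only one labelled as a control is the library whose label that value goes against. Hand2as was also listed at 0 in D/D replicate 4, which was not among the 3. That library held Ttn at 66.1, Nebl at 9.4, Mybpc3 at 1367 and Des at 1324 FPKM.

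Ttn and Nebl have the longest transcripts of the 10 genes, and long transcripts as a class were lower in 2 of those 3 libraries. The deviation of 247 transcripts over 8000 nt minus that of 1821 transcripts under 2000 nt had a median of -0.31 in +/+ replicate 5 and -0.18 in D/D replicate 5, but 0.04 in D/D replicate 6. The other 8-week libraries lay between -0.09 and 0.17. The part of transcript length in the Ttn values was not tested. With +/+ replicate 5 and D/D replicate 6 left out, a choice made after seeing the data, the count of the 10 genes called at 8 weeks was 0 as before.

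**Figure D3:**
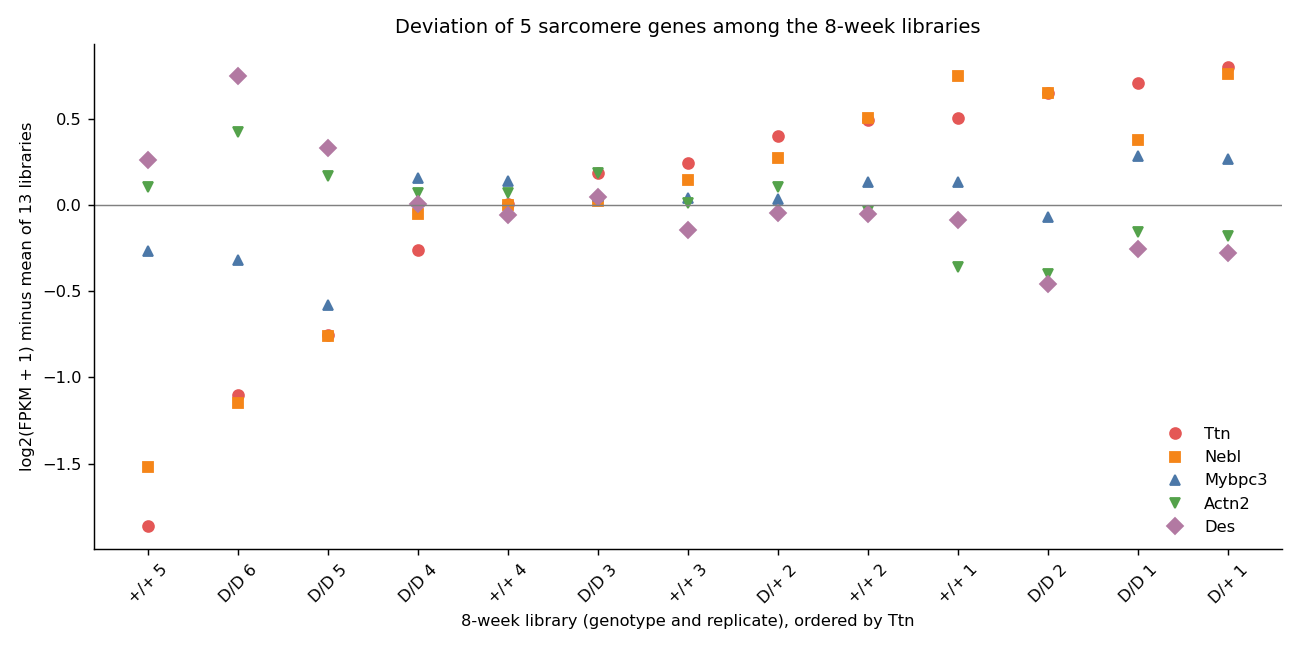
Points show log2(FPKM + 1) of 5 genes in each 8-week library minus the gene's mean over the 13 libraries, with libraries ordered by Ttn from left to right. Ttn, Nebl and Mybpc3 lie lowest and Des highest in D/D 6, D/D 5 and the library labelled +/+ 5. Hand2as was listed at 0 in these libraries and in D/D 4.

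At E11.5 the 2 libraries with the least Ttn were F/F replicate 2 and F/+ replicate 3. They were the 2 lowest of 6 libraries for Ttn, Mybpc3, Myom1, Actn2, Ldb3 and Nebl, but not for Myom2, Tcap, Myoz2 or Des. Unlike the 8-week libraries with the least Ttn, neither was among the 2 highest for Des. The median of long minus short transcripts was -0.34 in F/F replicate 2 and -0.10 in F/+ replicate 3, and 0.04 to 0.24 in the other 4 libraries. The sum of erythroid markers was 136289 FPKM in F/+ replicate 3, the highest, and 63225 in F/F replicate 2. The part of either measure in these values was not tested.

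Other genes of the same structures changed between stages in both directions. No gene of the 3 lists of related genes was called by genotype at any stage with limma. Those at an unadjusted limma p under 0.05 were named after their values were seen. At E11.5 they were Pdlim3, Pdlim5 and Murc, 3 of 24 Z-disc and I-band genes, with 0 of 14 and 0 of 13 in the other lists. At E16.5 it was Mybphl, 1 of 14 M-band and thick filament genes, with 0 of 23 and 0 of 12 in the others. At 8 weeks they were Csrp3 and Myot (2 of 24) and Mylk3 (1 of 14), with 0 of 16 in the third list. Over all genes such a p was found for 502 of 11491 at E11.5, 281 of 10699 at E16.5 and 175 of 10249 at 8 weeks. From E11.5 to E16.5 in F/+, 12 of 24 tested Z-disc and I-band genes rose and 7 fell, against 17.7% higher and 31% lower of all genes. Those averaging 5 FPKM or more included Hspb7 (a small heat shock protein, log2 fold change 2.13), Synpo2l (1.94) and Nexn (nexilin, 1.79) as the largest rises, and Myoz1 (-1.28), Ankrd1 (-1.08) and Actn1 (-0.83) as the largest falls. In F/F, 11 of 24 rose and 7 fell, against 17.3% and 29.7%. The share that fell was near that of all genes in both.

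Of 14 M-band and thick filament genes tested in F/+, 8 rose and 2 fell, against 17.7% higher and 31% lower of all genes. Ckm, the muscle creatine kinase of the M-band, went from a mean of 2.02 to 2310 FPKM (log2 fold change 9.64). Mybphl, a myosin-binding protein H-like gene, went from 31.2 to 0.53 FPKM (-4.40). Rbm20, the splicing factor of titin, rose by 2.45. Of 15 such genes tested in F/F, 7 rose and 4 fell, against 17.3% and 29.7%, with Ckm at 10.00 and Mybphl at -3.76. Thin filament end and desmin network genes were called higher in 6 and lower in 4 of 14 in F/+, and in 5 and 4 of 14 in F/F, so the share that fell was near that of all genes in both. Nrap, an actin-binding protein of growing myofibrils, rose by 3.74 in F/+ and 3.10 in F/F.

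Between E16.5 and 8 weeks, 13 of 25 Z-disc and I-band genes rose and 9 fell, against 24.9% higher and 44.9% lower of all genes. Xirp2 (4.58), Myot (myotilin, listed at 0 in all F/+ libraries and at a mean of 23.1 FPKM in +/+) and Cryab (4.12) were the largest rises among those averaging 5 FPKM or more, and Pdlim3 (-2.32), Synpo2l (-1.95) and Actn4 (-1.92) the largest falls among them. For the M-band and thick filament list, 7 of 14 rose and 3 fell, against the same shares of all genes, with Trim54, a titin-associated ubiquitin ligase, at 5.66 and Obsl1 at -1.21. In the thin filament and desmin list 9 of 16 rose and 3 fell, against those shares too. Lmod2 (leiomodin, 3.72) and Tmod4 (3.57) were among the rises. Vim, the intermediate filament of non-muscle cells, fell by 3.19 on the log2 scale, from 774 to 94 FPKM, and summed mesenchymal markers were at 1227 to 1386 FPKM in F/+ ventricles and 37 to 62.5 FPKM in 8-week +/+ cardiomyocytes. The part of other cell types in these falls was not tested.

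The genes most like each of the 10 in course were found by the root mean square difference of centred log2(FPKM + 1) values over the 25 libraries, among 11437 genes. Ryr2, the calcium release channel, was nearest to Ttn (0.32), followed by Abcc9 (0.41). Usp13 (0.19) and desmoplakin (Dsp, 0.23) were nearest to Myom1, and Slc20a2 (0.17) to Mybpc3. Actn2 was nearest to Kcng2 and Myo18b (0.22 each), Ldb3 to Tns1 and Hspb7 (0.23 each) and Des to Map7 (0.22). Myoglobin (Mb, 0.44) and Hspb6 (0.52) were nearest to Myom2, S100a1 (0.38) to Myoz2 and Itga7 (0.49) to Tcap. Nebl was nearest to Paics (0.40) and Idh1 (0.41). Within the set, Mybpc3 and Actn2 were closest (0.32), then Actn2 and Ldb3 (0.36), and Myom2 and Nebl were farthest apart (3.51). These values describe the spread over stages, which all genes share.

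The 2 single-cell libraries held 2563 (+/+) and 3469 (F/F) barcodes, where the labels aimed at about 5000 per sample. Median depth was 13369 and 13403 unique molecular identifiers (UMIs) per barcode, and 18 barcode sequences occurred in both libraries. After filters, 2503 and 3368 cells remained and were grouped into 18 clusters without use of the 10 genes. The 581 and 933 cells of 5 clusters that carried cardiomyocyte markers are called cardiomyocyte-like. Levels are given as CPM, the UMIs of a gene per 1000000 UMIs of a cell class. Each genotype has 1 library, so genotypes were not tested, and the 95% intervals cover counting error only.

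At E11.5 the UMIs of the 10 genes came almost wholly from cardiomyocyte-like cells. Of all UMIs of each gene, 93.6% (Ldb3) to 96.7% (Ttn) came from these cells, and all 5 of Myom2, while the class held 24.6% of all UMIs in +/+ and 27.9% in F/F. Ttn was at 1540 CPM (interval 1510 to 1560) in +/+ and 1330 (1310 to 1350) in F/F. Des was at 941 and 817, Actn2 at 626 and 554, and Mybpc3 at 545 and 481. Nebl was at 316 and 311, Ldb3 at 243 and 192, Tcap at 222 and 244, Myom1 at 185 and 164 and Myoz2 at 95.6 and 98.7. Myom2 had 3 UMIs in +/+ and 2 in F/F, and bulk hearts of that day held it at no more than 0.36 FPKM. UMIs count 3′ ends and are not divided by length, so these levels are compared between cells and libraries and not between genes.

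Other cell classes held low levels. In erythroid-like cells, which should lack these genes, Ttn was at 8.18 CPM in +/+ and 17.1 in F/F. Cardiomyocyte-like levels of the 9 measurable genes were 73-fold (Ldb3) to 257-fold (Nebl) those of erythroid-like cells in +/+, and 33.6-fold (Tcap) to 81.9-fold (Myoz2) in F/F. With each cell thinned to 5000 UMIs, 99.3% of cardiomyocyte-like cells in +/+ and 98.4% in F/F had a Ttn UMI, against 2.85% and 8.6% of erythroid-like cells. Median depths were 15300 and 14600 UMIs in cardiomyocyte-like and 10900 and 11700 in erythroid-like cells. Thinned shares for Nebl were 77.7% in both libraries against 0.457% and 3.23% in erythroid-like cells, and those for Myoz2 32.6% and 31% against 0.571% and 0.596%. Before thinning, the cardiomyocyte-like shares were 95% and 94.6% for Nebl and 57.8% and 57.3% for Myoz2.

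Outside cardiomyocyte-like cells, Des was at 39.5 CPM in epicardial-like cells of +/+ and 34.7 of F/F, against 7.31 and 11.1 in erythroid-like cells. In mesenchymal-like cells it was at 13.2 and 20.9. A cluster of 86 and 87 cells led by Iigp1 and Rgs5, 3.44% and 2.58% of the cells, was left unnamed. Of the mesenchymal markers 3 of 10 led it, below the 50% of a list that a name required. Also leading it were 4 of 6 outflow myocardium markers, a list used only to divide clusters already named cardiomyocyte. It held Des at 153 and 169 CPM and Ttn at 104 and 182, below cardiomyocyte-like cells and above the other classes.

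**Figure D4:**
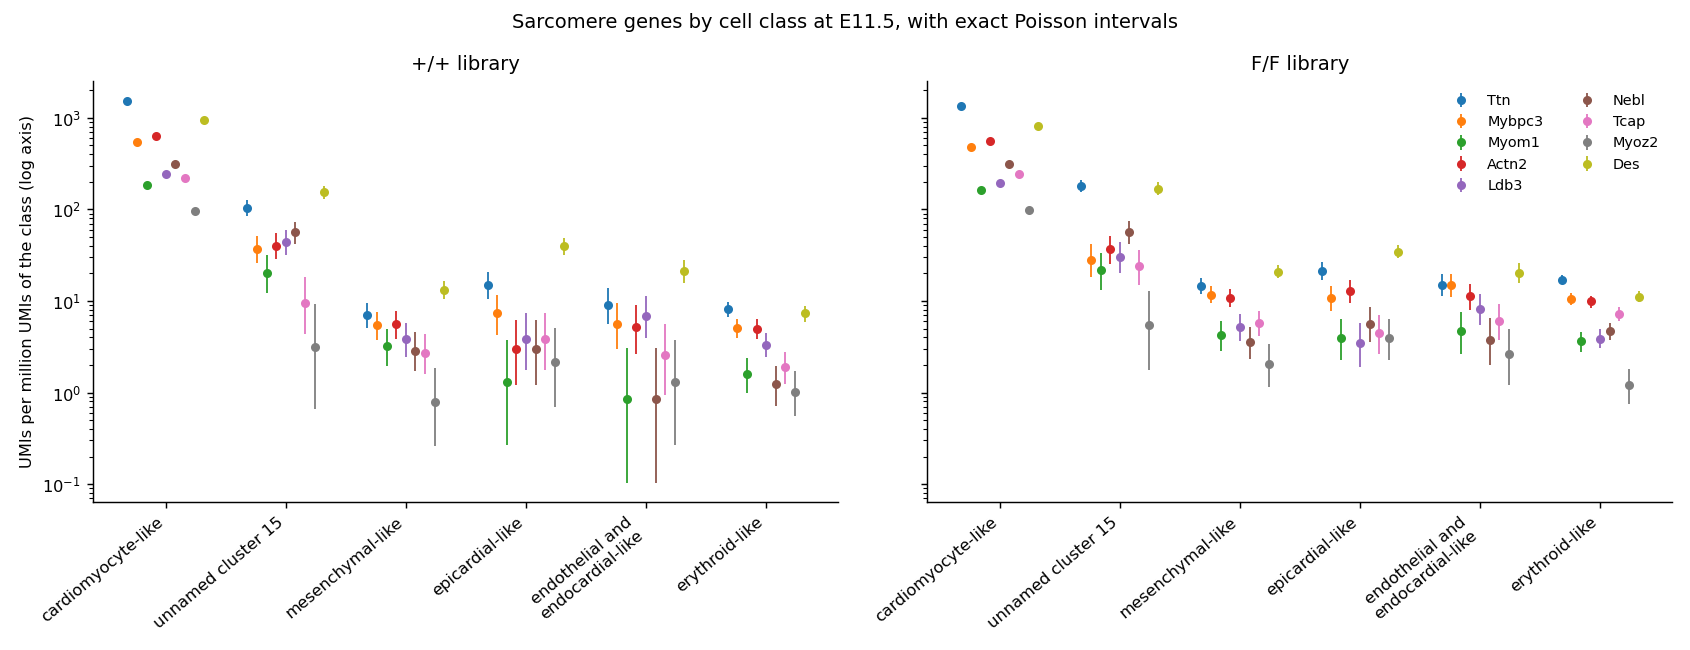
Points give CPM of each cell class (log axis) for 9 genes in the +/+ (left) and F/F (right) library of E11.5, with exact 95% Poisson intervals. Cardiomyocyte-like cells lie at 95.6 to 1540, the unnamed cluster between, and the other classes at 39.5 or below for every gene.

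Regions of the E11.5 heart differed in their Z-disc genes. Cardiomyocyte-like clusters were named ventricular (182 cells in +/+ and 409 in F/F), trabecular (241 and 291), outflow (119 and 152) and atrial and sinus (36 and 74) from markers, and a cluster of 10 cells was not split further. Myoz2 was at 175 CPM in ventricular-like cells and 45.8 in outflow-like cells of +/+, a 3.83-fold difference, and at 149 and 25.6 in F/F, a 5.82-fold difference. Tcap was 1.91-fold higher in ventricular-like than outflow-like cells in +/+ and 2.06-fold in F/F. Ldb3 ran the other way, with ventricular-like cells at 0.545 times the outflow-like level in +/+ and 0.465 times in F/F. Counting intervals of the 2 clusters did not overlap for these 3 genes in either library.

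Nebl was nearly even, at 316, 317, 284 and 325 CPM in ventricular-like, trabecular-like, atrial and sinus-like and outflow-like cells of +/+, with overlapping intervals. Actn2 was lowest in atrial and sinus-like cells, at 347 CPM in +/+ and 359 in F/F, against 525 to 728 in the other 3 clusters. Des was highest in trabecular-like cells, at 1110 in +/+ and 965 in F/F. Ttn was highest in outflow-like cells in +/+ (1810) and in trabecular-like cells in F/F (1540). These differences are between clusters of 1 library each and have no replicate check.

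**Figure D5:**
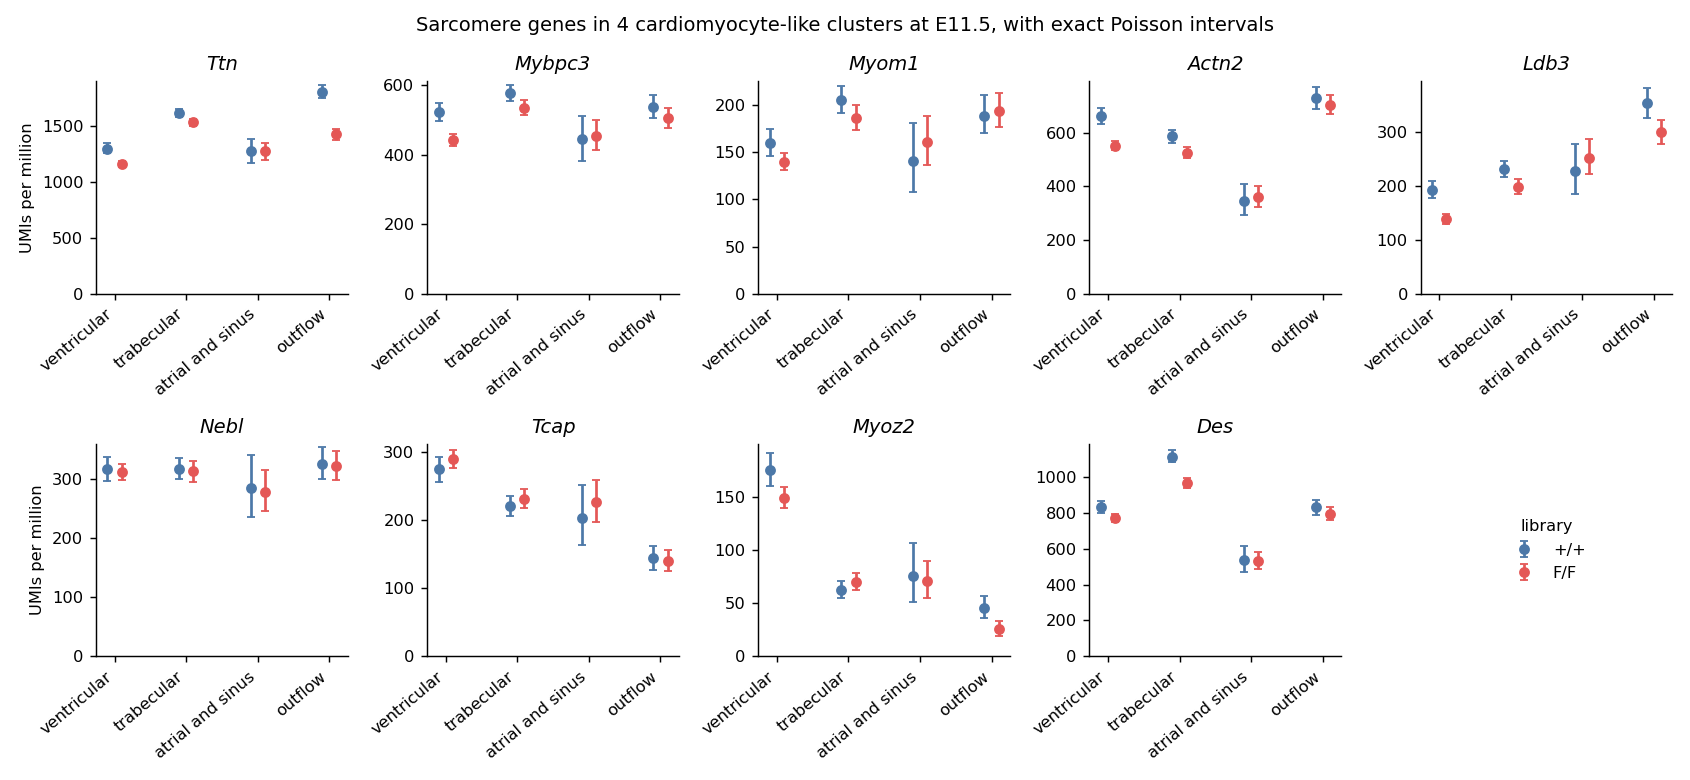
Each panel gives CPM of 1 gene in 4 cardiomyocyte-like clusters of the +/+ (blue) and F/F (red) library, with exact 95% Poisson intervals and axes from 0. Myoz2 and Tcap are highest in ventricular-like and Ldb3 in outflow-like cells of both libraries, and Nebl is nearly even.

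Between the 2 libraries, 6 of the genes were at a lower level in F/F cardiomyocyte-like cells by more than counting error. The log2 ratio of F/F to +/+ was -0.34 (interval -0.42 to -0.26) for Ldb3, -0.21 (-0.24 to -0.18) for Ttn, -0.20 for Des, -0.18 for Actn2 and Mybpc3 and -0.17 for Myom1. Among all genes ordered by this ratio, Ldb3 stood at percentile 7.99 and the others of these between 20.6 (Ttn) and 26.8 (Myom1). How many of all genes were lower by more than counting error is not given here. Nebl was at -0.03 (-0.09 to 0.04) and Myoz2 at 0.05 (-0.08 to 0.17), with intervals that span 0, and Tcap at 0.13 (0.05 to 0.21). Of the 9 genes that reached 100 UMIs in both libraries, 2 were higher in F/F, where 39.8% of 7010 genes were higher, and their median was -0.18 against -0.05 over all genes. The make-up of the class differed too: ventricular-like cells were 31.3% of it in +/+ and 43.8% in F/F.

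Within the ventricular-like, trabecular-like, outflow-like and atrial and sinus-like clusters the median ratio of the genes was -0.20, -0.11, -0.06 and 0.00. In ventricular-like cells 1 of 9 genes was higher in F/F, against 47% of all genes, with Ldb3 at -0.47 (interval -0.63 to -0.31) and Actn2 at -0.26 (-0.34 to -0.18). For trabecular-like cells it was 2 of 9, against 42.5%, with Ttn at -0.07 and Des at -0.21. In outflow-like cells 1 of 8 was higher, against 49.6%, with Ttn at -0.34 (-0.41 to -0.27). Atrial and sinus-like cells had 2 of 5 higher, against 60.1%, and every interval there spanned 0. Over all cells of the libraries, 6 of 9 were higher in F/F, against 45.1% of genes. These are values of 1 library each, so a difference of libraries and one of genotypes cannot be told apart.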

How the data were processed

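Poly(A) RNA of 25 bulk libraries was sequenced after a stranded library preparation, per the labels' protocols, and CASAVA, TopHat2 2.0.11 and mm9 are named for them in the submitters' processing notes. The deposited bulk table has no unit in its header, and its values were taken as FPKM because they are not whole numbers and do not sum to a common total. Per the same notes, Cell Ranger and mm10 were used for the 2 single-cell libraries, whose deposited values are UMI counts per gene and barcode, with barcode endings matched to the library named in the labels. Versions of the other tools are not given in the sources used here. From 24525 deposited bulk lines, repeated symbols with identical values were kept once, which left 24025 genes. Hand2as was read as LOC102636514, matched by RefSeq gene ID.

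The 10 genes, the lists of related genes, the markers and the comparisons were chosen with earlier results of these data known. Genes that averaged 1 FPKM or more in the compared libraries were tested with limma 3.58.1 (R 4.3.3) with an intensity trend on log2(FPKM + 1), and p-values were adjusted by Benjamini-Hochberg over all genes tested, with a threshold of 0.05. A fold change on this scale understates the change of low genes. Ratios of genes were compared with exact two-sided permutation tests. Related genes named were, per comparison, up to 3 called higher and 3 called lower with the largest fold changes and a mean of at least 5 FPKM, of which a part is printed. Both methods were tested on simulated data.

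Cells with at least 500 genes were kept, 52 and 96 likely doublets were removed by Scrublet score rank at 0.8% per 1000 cells, since the tool's own threshold marked only 5, and Leiden clustering (scanpy 1.11.5, 2000 variable genes, 30 components, resolution 1) was run without the 10 genes and related genes. Clusters were named from at least 3 leading markers that made up at least 50% of a list, a share set with the data in view. Lists of cardiomyocyte regions divided only clusters already named cardiomyocyte, so 4 of 6 leading outflow markers did not name the unnamed cluster. Intervals are exact at 95% and cover counting error only. Same-numbered replicates were not paired: correlations of their deviations ran from -0.435 to 0.454. Bulk coordinates are not given, because the reference was GRCm38 and not mm9. Alternatives tried were another pseudocount, no filter, 3 scalings, 1 joint fit, replicate blocks, a Y-linked covariate, leaving out each library and, for single cells, other filters, resolutions and thinning. The first principal component as covariate, leaving out +/+ replicate 5 and D/D replicate 6 together, and ratios with no pseudocount were added after seeing the data.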

Additional observations from a re-analysis of the deposited data

Results flagged for a closer look

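The 10 genes were each examined in the groups of 4 to 10 libraries, the 5 +/+ and the 6 D/D libraries of 8 weeks. Of these 20 sets of values, 3 held a library far from the others relative to the range of the group. Chance gives about 1 in 20 for independent sets. These sets share their libraries, and Mybpc3 and Des were flagged in the same one, so the 3 cannot be set against that rate. Mybpc3 in 8-week +/+ replicate 5 was at 1021 FPKM, the lowest of 5 and well below the next value of 1264. Des in the same library was at 1579 FPKM, the highest of 5, with the next at 1273. This library also had Hand2as listed at 0 and the least Ttn and Nebl of the 13 libraries, and its genotype label was not tested further. Myom2 in 8-week +/+ replicate 2 was at 730 FPKM, the highest of 5, with the next at 396, and the other M-band gene Myom1 was also highest of +/+ there, at 402 FPKM.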

How the results depend on the processing

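For the 25 stage values of single genes that passed the test, 334 alternatives kept the direction and 332 the call. The exceptions were Des in F/F in 1 fit of all 25 libraries and Mybpc3 at 8 weeks rescaled without haemoglobin and mitochondrial genes (0.26). No alternative called any of the 10 genes by genotype or interaction, but small genotype values changed sign. Rescaled without haemoglobin and mitochondrial genes, the E11.5 values were -0.18 for Mybpc3, -0.21 for Actn2, -0.04 for Ldb3, -0.31 for Nebl, -0.07 for Tcap and Myoz2 and -0.13 for Des, with interactions of 0.14 for Mybpc3, 0.21 for Actn2, 0.07 for Ldb3, 0.06 for Tcap and 0.10 for Des. The same rescaling gave -0.01 for Myom1 at 8 weeks and -0.06 for Actn2 between E16.5 and 8 weeks. At E16.5, Actn2 was at -0.01 with upper-quartile and -0.0039 with median-ratio scaling, and Mybpc3 and Tcap at 0.01 with a Y-linked covariate. With a replicate block at 8 weeks, Ttn was at 0.20, Actn2 at -0.03, Nebl at 0.08 and Des at -0.06; with +/+ as the only control Ttn was at 0.03, and without +/+ replicate 5 and D/D replicate 6 Myom1 was at -0.05. The cause of these changes was not tested.

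Leaving out 1 library at a time gave, at E11.5, -0.06 to 0.42 for Actn2 and for Mybpc3, -0.36 to 0.27 for Myom1, -0.39 to 0.36 for Nebl, -0.04 to 0.48 for Tcap and -0.82 to 0.23 for Ttn. At E16.5 it gave -0.04 to 0.04 for Actn2, -0.08 to 0.04 for Des, -0.02 to 0.08 for Ldb3, -0.25 to 0.22 for Myoz2 and -0.12 to 0.11 for Tcap, and at 8 weeks -0.01 to 0.23 for Des, -0.10 to 0.07 for Myom1 and -0.51 to 0.02 for Ttn. Interactions ran from -0.41 to 0.06 for Actn2, -0.46 to 0.02 for Mybpc3, -0.15 to 0.48 for Myom1, -0.26 to 0.49 for Nebl, -0.49 to 0.03 for Tcap and -0.02 to 1.03 for Ttn, and Ttn between embryonic stages in F/F from -0.56 to 0.45. The log2 ratio of Myom2 to Myom1 differed by genotype by -0.11 to 0.42 at E11.5, -0.04 to 0.19 at E16.5 and -0.50 to -0.13 at 8 weeks, and by 2.18 to 2.47 from E16.5 to 8 weeks. There, and for Mybpc3 and Actn2 to Ttn, the smallest p that the remaining libraries allow is 0.0571 or 0.0952. Ratios of Actn2 and Mybpc3 to Ttn by genotype at 8 weeks ran from -0.01 to 0.62 and -0.12 to 0.30. Tcap to Myoz2 ran from -0.18 to 0.25 at E11.5 and -0.29 to 0.33 at E16.5 by genotype, and from -0.59 to 0.03 between embryonic stages in F/F.

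Counts of all genes called by genotype at E11.5 moved from 1 to 4 rescaled without haemoglobin and mitochondrial genes, to 24 in 1 fit of all 25 libraries, to 2 with a replicate block and to 2 with a Y-linked covariate, and ran from 1 to 2 leaving 1 library out. At E16.5 they moved from 1 to 2 at a pseudocount of 0.1 and to 3 with a Y-linked covariate, and ran from 0 to 2. Interaction counts moved from 1 to 2 at a pseudocount of 0.1, 3 with no filter, 2 with that rescaling and 6 in 1 fit of all libraries, and ran from 1 to 9, the most without F/+ replicate 3 of E11.5. Of the 10 genes, 1 to 2 were lower between embryonic stages in F/+. The replicate block changed no other call than that of Myom1 between embryonic stages in F/F (0.71, adjusted p = 0.0227 with limma). In single cells thinned to 5000 UMIs, 1 of 9 genes was higher in F/F cardiomyocyte-like cells, against 2. Bulk depth is unknown, so how far depth limits low values such as Myom2 at E11.5 cannot be stated.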
